A study of Homo sapiens with 12 samples.

Results

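The miR-15/16 group was followed here through 9 miRNA names: hsa-miR-15a-5p, hsa-miR-15a-3p, hsa-miR-15b-5p, hsa-miR-15b-3p, hsa-miR-16-5p, hsa-miR-16-1-3p, hsa-miR-16-2-3p, hsa-miR-195-5p and hsa-miR-497-5p (the species prefix is mostly left out below). They were taken by name and not by a cut-off on measured values, but earlier results of these data were known when they were chosen. All 9 were listed in both cell lines, among 1611 names in HEK293T and 1854 in HCT116. HEK293T is a human embryonic kidney line and HCT116 a human colorectal carcinoma line. Small RNA was read in each by AQ-seq, a library protocol made to lessen ligation bias, after rescue with 1 of 3 forms of DICER. The forms were a deletion of the double-stranded RNA-binding domain (ΔdsRBD in the labels, dsRBD deletion here), a form labelled AA, whose altered residues the labels leave unnamed, and WT. All 6 groups are thus rescued cells, and the WT group is a rescue as well. Each group held 2 libraries, 12 in all. The labels do not say how much DICER each rescue line made, whether a line is a clone, or whether the 2 libraries of a group stem from independent cultures. The p-values therefore rest on a spread that may be technical. The labels also do not state whether the host cells kept DICER of their own. By its title, the series asks which sequences in double-stranded RNA guide DICER cutting, and the comparisons below set the deletion and AA against WT in each line.

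DICER cuts the loop off a hairpin precursor and leaves a duplex of a 5p and a 3p strand, of which usually a single strand, the guide, is kept in Argonaute. The domain deleted here binds double-stranded RNA near the C-terminal end of the protein, next to the catalytic domains. The miR-15/16 guides are known for holding back BCL2 and cyclins, and the hairpins of miR-15a and miR-16-1 lie in DLEU2, a locus often lost in chronic lymphocytic leukaemia. Their paralogs miR-15b and miR-16-2 lie in SMC4, which encodes a condensin subunit, and miR-195 and miR-497 lie together in MIR497HG. Because the 5p strands share the seed, the bases that pair first with a target, they can pair with the same target sites.

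The mature sequences are shown because the 5p strands share a seed and the closest pairs differ by few bases beyond it. They are from RefSeq on GRCh38.p14, which matched 9 of 9 members, and run 5′ to 3′ with the seed, bases 2 to 8, in capitals. The 5 member 5p strands share 1 seed, as does miR-424-5p, while the seed of miR-503-5p is another one.
miR-15a-5p: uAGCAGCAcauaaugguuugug
miR-15b-5p: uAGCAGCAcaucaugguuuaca
miR-16-5p: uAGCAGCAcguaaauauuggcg
miR-195-5p: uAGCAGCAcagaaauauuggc
miR-497-5p: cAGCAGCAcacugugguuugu
miR-424-5p: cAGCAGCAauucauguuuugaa
miR-503-5p: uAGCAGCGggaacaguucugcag
Counting from the 5′ end, miR-15a-5p and miR-15b-5p are identical at 18 of 22 positions and differ by A12C, G20A, U21C and G22A, with the miR-15a base written before the position. The strands miR-16-5p and miR-195-5p are identical at 19 of the 21 positions they share.

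The 4 member 3p strands have 4 different seeds. The seed of miR-16-2-3p is also that of miR-195-3p.
miR-15a-3p: cAGGCCAUauugugcugccuca
miR-15b-3p: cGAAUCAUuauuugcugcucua
miR-16-1-3p: cCAGUAUUaacugugcugcuga
miR-16-2-3p: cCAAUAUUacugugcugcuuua

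The hairpins of the 2 clusters that carry the main contrast are given with both mature strands in capitals, so that the bases between the strands, which DICER cuts off as a loop, are in lower case.
MIR15A: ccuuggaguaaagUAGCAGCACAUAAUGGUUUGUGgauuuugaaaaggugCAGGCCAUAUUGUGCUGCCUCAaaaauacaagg
MIR15B: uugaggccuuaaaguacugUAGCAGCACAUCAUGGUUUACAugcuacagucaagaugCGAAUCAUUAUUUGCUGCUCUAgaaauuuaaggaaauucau
MIR16-1: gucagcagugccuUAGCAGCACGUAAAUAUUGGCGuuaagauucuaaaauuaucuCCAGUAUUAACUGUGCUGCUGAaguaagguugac
MIR16-2: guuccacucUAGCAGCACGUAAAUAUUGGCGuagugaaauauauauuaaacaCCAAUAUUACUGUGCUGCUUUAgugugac
MIR15A lies at chr13:50049119-50049201 and MIR16-1 at chr13:50048973-50049061, both on the minus strand. The MIR15A hairpin overlaps an exon of DLEU2 and the MIR16-1 hairpin an intron. MIR15B lies at chr3:160404588-160404685 and MIR16-2 at chr3:160404745-160404825, both on the plus strand in an intron of SMC4. MIR195, at chr17:7017615-7017701, and MIR497, at chr17:7017911-7018022, lie on the minus strand over exons of MIR497HG. Between the strands there are 15 bases in MIR15A, 16 in MIR15B, 20 in MIR16-1 and 21 in MIR16-2. Both miR-16 hairpins give the same miR-16-5p, so its reads cannot be split between the 2 loci, whereas the 3p strands tell the loci apart.

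Library depth was 1059778 to 3552613 miRNA reads in HEK293T and 824987 to 4498886 in HCT116, with the deletion libraries the shallowest of each line. The members had between 37 and 258841 reads in a library, and took 8.11% to 10.5% of the miRNA reads in HEK293T and 2.49% to 3.07% in HCT116. Sums of marker miRNAs went with the line labels: 4 listed for an embryonic kidney line summed to 75988 to 122894 CPM (counts scaled to a common total of miRNA reads) in HEK293T and 8214 to 22400 CPM in HCT116, and 6 listed for colon epithelium to 7990 to 16619 CPM in HEK293T and 354638 to 488353 CPM in HCT116. The most abundant of the colon list in HCT116 was miR-21-5p, and a sum does not show how each marker of a list stood. Blood markers summed to at most 507 CPM in any library, and those of muscle, liver, neuron and endothelium to at most 976 CPM. Levels below are CPM scaled by TMM over the 6 libraries of a line, and called means an adjusted p below 0.05 in edgeR's quasi-likelihood test over all names of that fit.

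With WT DICER, miR-16-5p was the most abundant member in both lines, and 8 of 9 members were called higher in HEK293T than in HCT116. Over both lines 73.2% of 844 names were called between them. On a scale set over all 12 libraries, miR-16-5p averaged 72377 CPM in HEK293T and 18775 CPM in HCT116, a log2 difference of 1.95 ± 0.16 (SE). The largest difference was that of miR-195-5p, at 1133 CPM in HEK293T and 96.7 CPM in HCT116, a log2 difference of 3.55 ± 0.20. The order below miR-16-5p also differed between the lines. In HEK293T, miR-15a-5p (13612 ± 532 CPM, SD, n = 2, on the scale of the line) stood above miR-15b-5p (8505 ± 314 CPM), whereas in HCT116 miR-15b-5p (6469 ± 260 CPM) stood above miR-15a-5p (2374 ± 100.2 CPM). Below these the order in HEK293T was miR-16-2-3p, miR-15b-3p, miR-195-5p, miR-497-5p, miR-16-1-3p and miR-15a-3p, and in HCT116 miR-16-2-3p, miR-15b-3p, miR-16-1-3p, miR-195-5p, miR-497-5p and miR-15a-3p. No neighbours in either order overlapped in their libraries, and the closest were miR-497-5p (451 and 435 CPM) and miR-16-1-3p (413 and 389 CPM) in HEK293T. The difference of miR-15b-5p between the lines, 0.35 ± 0.16, was not called (adjusted p = 0.061). It was called at 0.61 on library totals, at 0.43 without HEK293T WT replicate 1 and at 0.48 without HCT116 WT replicate 2, and at −1.33, with the sign turned, when libraries were scaled on the spike-in RNAs described below. On that scale 5 members were called between the lines, 3 higher and 2 lower in HEK293T, and miR-16-5p was at 0.27 and not called, while the median of all names was −2.02 there and −0.39 by TMM. Of all 844 names, 85 were then called higher and 577 lower in HEK293T.

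**Figure D1:**
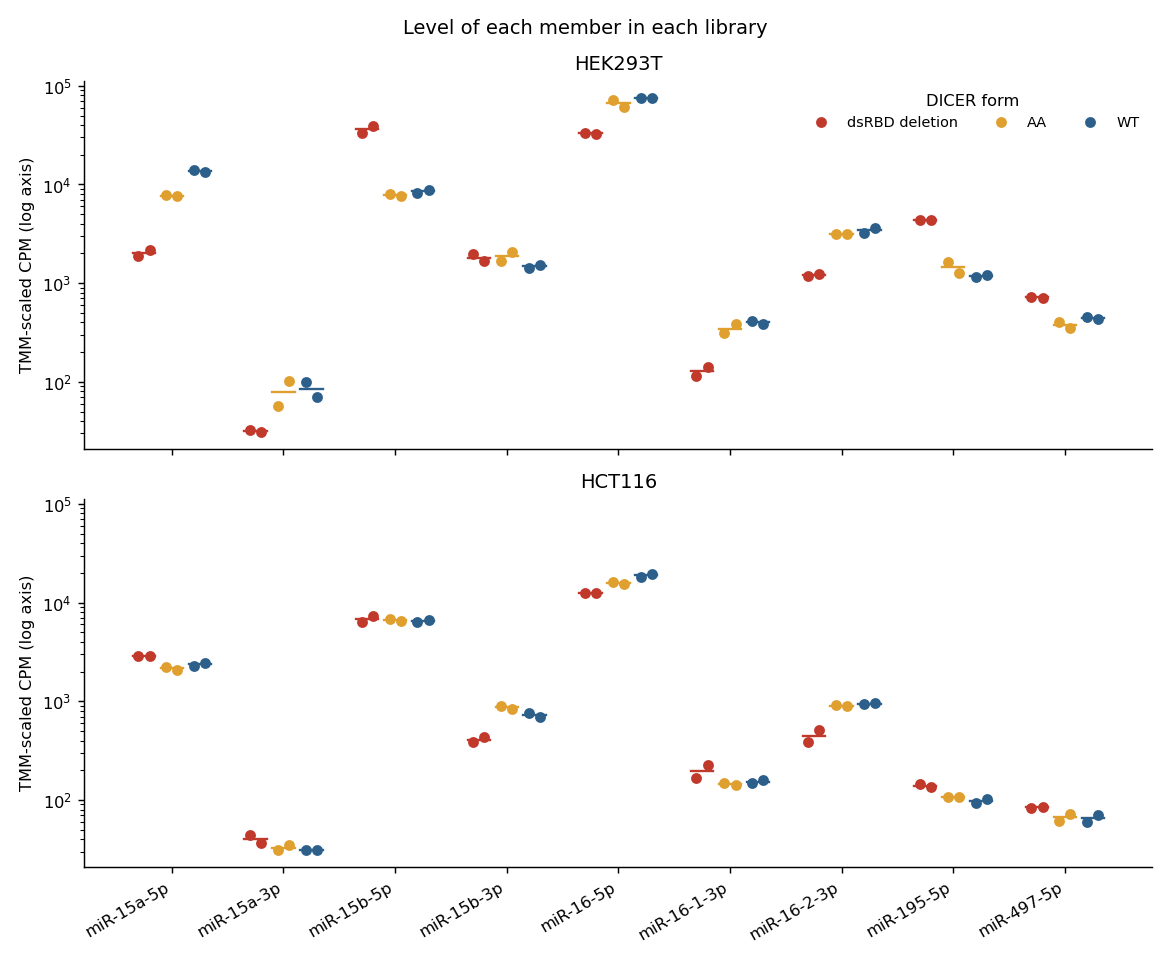
TMM-scaled CPM on a log axis for the 9 members in HEK293T (upper panel) and HCT116 (lower panel), with dsRBD deletion left of AA and WT. Each point is a library and each line the mean of 2; in HEK293T the deletion points of miR-15a-5p lie at 1899 and 2162 CPM, below the other 4 libraries of that miRNA, and those of miR-15b-5p at 33461 and 39168 CPM, above the other 4.

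In HEK293T the dsRBD deletion moved the close paralogs miR-15a-5p and miR-15b-5p in opposite directions. hsa-miR-15a-5p had 1899 and 2162 CPM with the deletion, 7789 and 7619 CPM with AA, and 13989 and 13236 CPM with WT. The deletion libraries were the lowest and the WT libraries the highest, with no overlap among the 3 groups. The log2 fold change of deletion over WT was −2.75 ± 0.17 (SE; adjusted p = 1.3e-07), a 6.70-fold fall. hsa-miR-15b-5p had 33461 and 39168 CPM with the deletion, 8093 and 7619 CPM with AA, and 8283 and 8728 CPM with WT. Both deletion libraries stood far above the other 4, and the log2 fold change over WT was 2.09 ± 0.16 (adjusted p = 7.8e-07), a 4.27-fold rise. Scaled on the spike-in RNAs described further below, its log2 fold change was 0.64 (adjusted p = 0.033), and with single spike-ins as the reference it was below 0 for 7 of 30. By TMM, 3 members rose, 5 fell and 1 was not called in this comparison, in which 75.6% of 626 names were called. Deletion and WT libraries did not overlap in 9 of 9 members, and in 89.0% of all names, so such separation does not set the members apart. On the spike-in scale 1 member was called higher, 7 were called lower and miR-195-5p was not called, with miR-497-5p at −0.75 and miR-15b-3p at −1.16 among the lower. Of all names, 225 were higher and 248 lower by TMM, and 60 higher and 386 lower on the spike-in scale. The median log2 fold change was −1.19 over the members and −0.07 over all names tested.

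By TMM, the 3p strands of these hairpins stood less far from WT than the 5p strands. The passenger miR-15a-3p had 32.7 and 31.4 CPM with the deletion in HEK293T, against 98.5 and 70.2 CPM with WT, and fell by 1.39 ± 0.33 on the log2 scale (adjusted p = 0.0028). miR-15b-3p had 1952 and 1658 CPM with the deletion, against 1426 and 1529 CPM with WT. Its deletion libraries were both above its WT libraries, but the log2 fold change of 0.29 ± 0.18 was not called (adjusted p = 0.16). The partner of the strand that rose thus showed no called change by TMM. On the spike-in scale miR-15b-3p was called lower, as given above, and stood further from WT than miR-15b-5p.

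The miR-16 strands all fell in HEK293T with the deletion. hsa-miR-16-5p, the sum of 2 loci, had 33500 and 32278 CPM with the deletion, against 74879 and 75657 CPM with WT, a log2 fold change of −1.19 ± 0.16 (adjusted p = 4.2e-05). The strand particular to the DLEU2 locus, miR-16-1-3p, had 115 and 142 CPM with the deletion, against 413 and 389 CPM with WT (log2 fold change −1.64 ± 0.20, adjusted p = 2.2e-05). The strand of the SMC4 locus, miR-16-2-3p, had 1187 and 1245 CPM with the deletion, against 3261 and 3649 CPM with WT (log2 fold change −1.51 ± 0.16, adjusted p = 9.9e-06). In each of the 3, both deletion libraries were below both WT libraries, where 89.0% of all names did not overlap between these groups. The ratio of the 3p strands of the 2 loci, 10.3 and 8.79 with the deletion, overlapped with that of WT, 7.89 and 9.37.

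Both members of MIR497HG rose in HEK293T with the deletion. hsa-miR-195-5p, the closest of the 5p strands to miR-16-5p in sequence, had 4392 and 4342 CPM with the deletion, against 1152 and 1201 CPM with WT. Its log2 fold change was 1.89 ± 0.18 (adjusted p = 4.0e-06), opposite in sign to that of miR-16-5p, but on the spike-in scale it was 0.44 and not called. miR-497-5p had 731 and 710 CPM with the deletion, against 451 and 435 CPM with WT, a smaller rise of 0.70 ± 0.16 (adjusted p = 0.0024), and its call was lost without deletion replicate 2 (0.61, adjusted p = 0.053) and with no filter on low counts (0.38, adjusted p = 0.27), and turned to −0.75 on the spike-in scale. Their partner strands were not called: miR-195-3p had 64.4 and 64.3 CPM with the deletion, against 47.8 and 44.7 CPM with WT, and miR-497-3p 33.5 and 26.0 CPM against 33.3 and 29.8 CPM.

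In HCT116 the same deletion left miR-15a-5p and miR-15b-5p without a called change on the TMM scale. On the spike-in scale, given further below, all 9 members were lower in HCT116. miR-15a-5p had 2900 and 2876 CPM with the deletion, against 2303 and 2445 CPM with WT (log2 fold change 0.28 ± 0.11, adjusted p = 0.052). miR-15b-5p had 6286 and 7359 CPM with the deletion, against 6285 and 6652 CPM with WT, 2 groups that overlapped (0.08 ± 0.12, adjusted p = 0.58). Here 3 members fell, 1 rose and 5 were not called, in a comparison in which 62.1% of 795 names were called. The median log2 fold change was 0.28 over the members and −0.01 over all names tested. With library totals in place of TMM, 6 members were called higher and 1 lower, and with upper-quartile factors 6 higher and 3 lower, while the median of all names moved to 0.52 and 0.27. Of all names, 223 were higher and 271 lower by TMM, 317 higher and 198 lower on library totals, and 281 higher and 231 lower with upper-quartile factors.

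The members that fell in HCT116 were miR-16-5p and the 3p strands of the SMC4 locus, while miR-15b-5p of that locus was not called. miR-16-5p had 12454 and 12421 CPM with the deletion, against 18203 and 19489 CPM with WT, a log2 fold change of −0.60 ± 0.10 (adjusted p = 5.4e-04). miR-16-2-3p had 386 and 512 CPM with the deletion, against 946 and 951 CPM with WT (−1.07 ± 0.15, adjusted p = 1.3e-04). miR-15b-3p had 387 and 432 CPM with the deletion, against 754 and 692 CPM with WT (−0.82 ± 0.13, adjusted p = 3.6e-04). Each of these 3 had both deletion libraries below both WT libraries, although miR-15b-3p and miR-16-5p lost the call on library totals (−0.29 and −0.07). Deletion and WT libraries did not overlap in 8 of 9 members, and in 82.5% of all 795 names. The strands of the DLEU2 locus took the other side without being called: miR-16-1-3p had 168 and 226 CPM with the deletion, against 147 and 159 CPM with WT (0.37 ± 0.17; called at 0.42 without deletion replicate 1), and miR-15a-3p 44.4 and 36.5 CPM against 31.5 and 31.0 CPM (0.35 ± 0.20).

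miR-195-5p was the member that rose in HCT116, with 145 and 134 CPM under the deletion, against 92.6 and 101 CPM with WT (log2 fold change 0.52 ± 0.15, adjusted p = 0.012). That call was lost without deletion replicate 1 (0.33, adjusted p = 0.11), without WT replicate 1 (0.32, adjusted p = 0.19) and without WT replicate 2 (0.51, adjusted p = 0.050). It was also lost with no filter on low counts (0.29) and in a fit of all 12 libraries (0.40). miR-497-5p had 82.6 and 85.8 CPM with the deletion, against 60.1 and 71.1 CPM with WT (0.36 ± 0.18, not called).

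**Figure D2:**
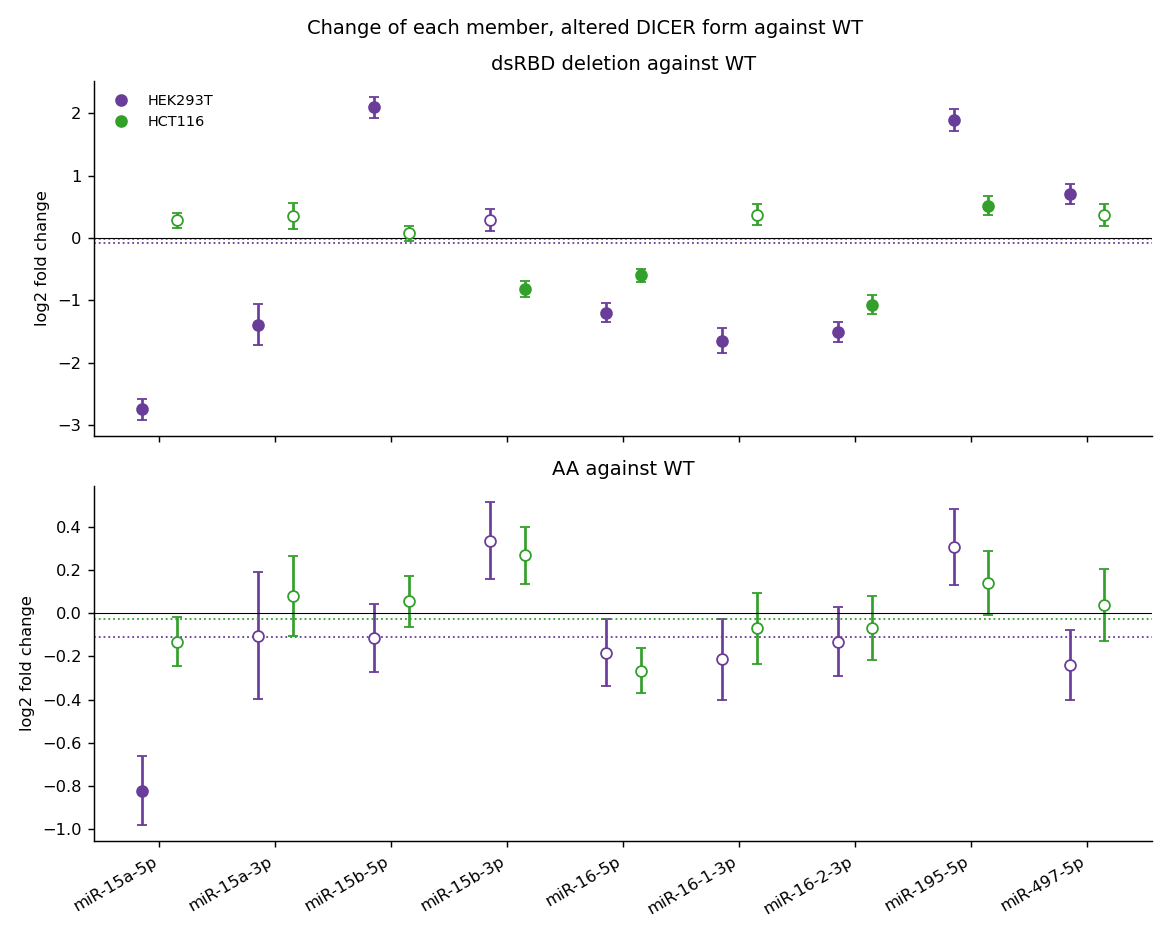
log2 fold change (y axis) of each member, dsRBD deletion over WT in the upper panel and AA over WT in the lower one, with HEK293T left of HCT116; bars are SE, filled points are called and dotted lines the median of all names tested. In HEK293T with the deletion, miR-15a-5p stands at −2.75 and miR-15b-5p at 2.09, while they stand at 0.28 and 0.08 in HCT116; the lower panel has a finer axis.

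The difference between the lines was itself tested, as the deletion effect in HEK293T minus that in HCT116 over all 12 libraries. It was called for 6 of 9 members, 3 positive and 3 negative, where 34.8% of 844 names were called. The largest were miR-15a-5p (log2 difference −2.72 ± 0.23, adjusted p = 7.7e-09) and miR-15b-5p (2.32 ± 0.23, adjusted p = 6.3e-08). The other 4 were miR-16-1-3p (−1.70 ± 0.28), miR-15a-3p (−1.42 ± 0.40), miR-195-5p (1.68 ± 0.27) and miR-15b-3p (1.41 ± 0.26). The difference was not called for miR-16-5p, miR-16-2-3p or miR-497-5p. All 3 strands that come from DLEU2 alone had a negative difference, and miR-15b-5p, miR-15b-3p and miR-195-5p a positive one, but miR-16-2-3p of SMC4 was not called. The median difference was −0.13 over the members and 0.34 over all names by TMM, and −0.40 over all names on library totals.

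Ratios of reads within a library do not depend on how libraries are scaled. With 2 libraries against 2, an exact permutation test of a ratio cannot go below p = 0.333, so the ratios are given as values with their spread. miR-15b-5p over miR-15a-5p was 17.6 and 18.1 with the deletion in HEK293T, 1.04 and 1.00 with AA, and 0.592 and 0.659 with WT. The deletion ratio was 28.6-fold that of WT, and the 3 groups did not overlap. In HCT116 the same ratio was 2.17 and 2.56 with the deletion, 3.07 and 3.14 with AA, and 2.73 and 2.72 with WT. The deletion libraries were here the lowest, at 0.864 of the WT ratio. Over miR-16-5p, miR-15b-5p was at 0.999 and 1.21 with the deletion in HEK293T, 0.113 and 0.125 with AA, and 0.111 and 0.115 with WT, close to the level of miR-16-5p in the deletion libraries and far below it in the other 4. In AA replicate 2 of HEK293T, miR-15a-5p and miR-15b-5p had the same count, 10629 reads.

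Ratios were also taken between neighbours on 1 transcript. They use 3p strands in the SMC4 and DLEU2 clusters and 5p strands for miR-195 and miR-497. All of them thus also carry any shift in strand balance, tested below for miR-15a, miR-15b, miR-195 and miR-497. miR-15b-3p over miR-16-2-3p, the unshared strands of the SMC4 cluster, was 1.64 and 1.33 with the deletion in HEK293T, 0.533 and 0.649 with AA, and 0.437 and 0.419 with WT. The deletion ratio was 3.46-fold that of WT, so these 3p strands did not move together. In HCT116 that ratio was 1.00 and 0.844 with the deletion, 0.984 and 0.942 with AA, and 0.797 and 0.727 with WT, a 1.21-fold difference of deletion over WT. miR-15a-3p over miR-16-1-3p, the unshared strands of the DLEU2 cluster, was 0.285 and 0.222 with the deletion in HEK293T, against 0.238 and 0.180 with WT, and the groups overlapped. In HCT116 it was 0.264 and 0.162 with the deletion, against 0.213 and 0.195 with WT, and the groups overlapped there too. With the deletion, miR-15a-3p had only 37 and 41 reads in HEK293T and 43 and 63 in HCT116. The overlaps therefore do not show that the DLEU2 hairpins moved together. Between the loci, miR-16-2-3p over miR-16-1-3p in HCT116 was 2.29 and 2.27 with the deletion, 6.15 and 6.22 with AA, and 6.41 and 5.97 with WT, so the deletion ratio was 2.71-fold lower than that of WT. In HEK293T the same ratio overlapped between deletion and WT, as given above. miR-195-5p over miR-497-5p was 6.01 and 6.11 with the deletion in HEK293T, 4.10 and 3.63 with AA, and 2.55 and 2.76 with WT. In HCT116 it was 1.75 and 1.56 with the deletion, against 1.54 and 1.43 with WT, a 1.11-fold difference.

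**Figure D3:**
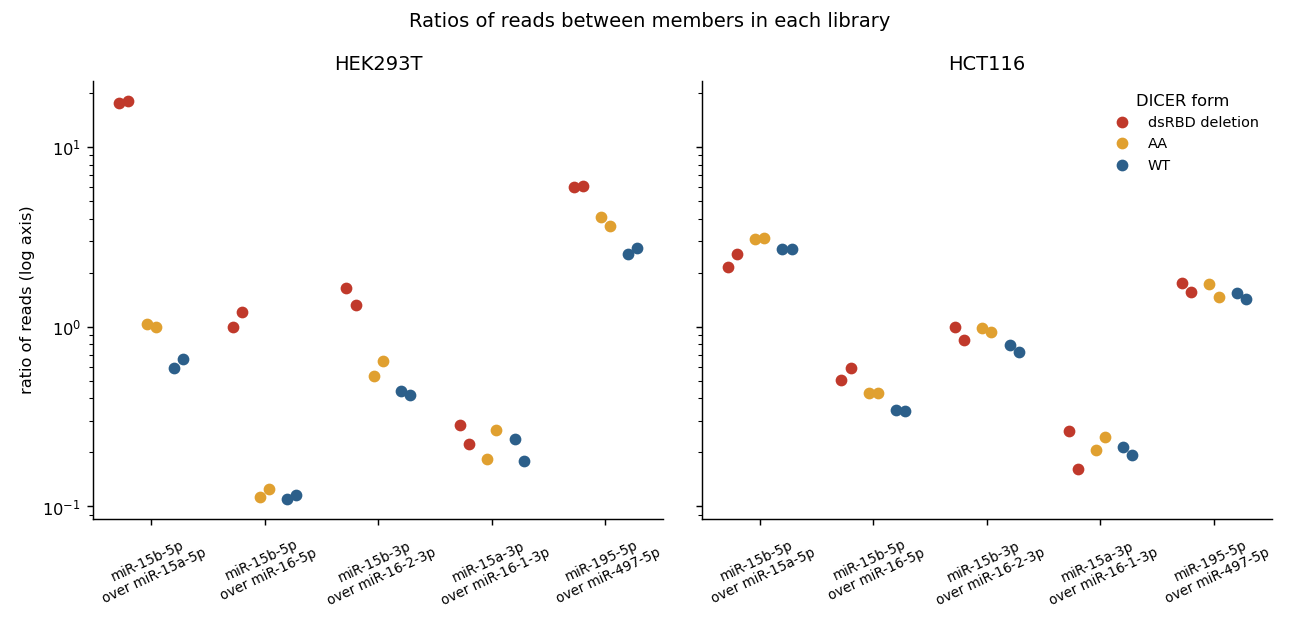
Ratios of reads between members on a log axis in HEK293T (left) and HCT116 (right), 1 point per library, with dsRBD deletion left of AA and WT. In HEK293T the deletion libraries stand at 17.6 and 18.1 for miR-15b-5p over miR-15a-5p, against 0.592 and 0.659 with WT, while miR-15a-3p over miR-16-1-3p overlaps among the forms.

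The balance of the strands of a hairpin was tested as the 3p over 5p ratio, for the 4 member hairpins whose 5p strand has a single locus. In HEK293T with the deletion it was called in 4 of 4, among 180 hairpins of which 57.8% were called. The 3p strand of miR-15b was 5.51% and 4.06% of the reads of its hairpin with the deletion, against 14.7% and 14.9% with WT, a log2 change of the ratio of −1.81 ± 0.21 (adjusted p = 2.8e-07). The 3p strand of miR-15a moved the other way, at 1.69% and 1.43% with the deletion, against 0.699% and 0.527% with WT (1.37 ± 0.31). The 3p strand of miR-195 was 1.45% and 1.46% of its hairpin's reads with the deletion, against 3.99% and 3.59% with WT (−1.42 ± 0.32). For miR-497 the shares were 4.39% and 3.53% with the deletion, against 6.87% and 6.42% with WT (−0.79 ± 0.33, adjusted p = 0.045), and its call was lost when any of the 4 libraries compared was left out (adjusted p = 0.051 to 0.22). The median log2 change over all hairpins was −0.37, and the 5p strand stayed the more abundant in these 4 hairpins in all 12 libraries.

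In HCT116 the deletion moved strand balance in 1 of 4 member hairpins, where 62.9% of 229 hairpins were called. The 3p strand of miR-15b was 5.80% and 5.55% with the deletion, against 10.7% and 9.42% with WT (log2 change −0.89 ± 0.17, adjusted p = 8.7e-05). That was close to the median of all hairpins in this comparison, −0.87. For miR-15a the 3p share was 1.51% and 1.25% with the deletion, against 1.35% and 1.25% with WT (0.07 ± 0.22), and for miR-195 and miR-497, with at most 16 reads of the 3p strand in a library, no change was called. Against AA in place of WT, the deletion moved 2 of 4 member hairpins in HEK293T (miR-15b and miR-195; 52.8% of hairpins called) and 1 of 4 in HCT116 (miR-15b; 57.2% called).

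The 5p strands of the family were also taken as a sum, to follow its make-up. The 5 member 5p strands, miR-424-5p and miR-503-5p together made up 8.20% and 8.69% of miRNA reads with the deletion in HEK293T, 8.49% and 7.73% with AA, and 10.2% and 9.78% with WT. Per 1000 spike-in reads the same sum was 2389 and 2368 reads with the deletion in HEK293T, 4994 and 3422 with AA, and 8441 and 7915 with WT. The groups were thus further apart against the spike-ins than as a share of miRNA reads. In HCT116 the sum made up 2.74% and 3.10% of miRNA reads with the deletion, 2.57% and 2.44% with AA, and 2.51% and 2.49% with WT. There it came to 1744 and 2006 reads per 1000 spike-in reads with the deletion, 5387 and 5008 with AA, and 6864 and 9146 with WT, so the deletion was above WT as a share and below it against the spike-ins. Within the sum in HEK293T, miR-15b-5p took 45.8% ± 3.1 (SD, n = 2) with the deletion and 8.40% ± 0.28 with WT. miR-16-5p took 41.6% ± 2.9 with the deletion and 74.3% ± 0.26 with WT, and miR-15a-5p 2.56% ± 0.12 with the deletion and 13.4% ± 0.58 with WT. In HCT116, miR-16-5p took 52.2% ± 1.6 with the deletion and 64.1% ± 0.071 with WT, and miR-15b-5p took 26.9% and 30.3% in the deletion libraries and 22.1% and 21.9% in the WT libraries.

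**Figure D4:**
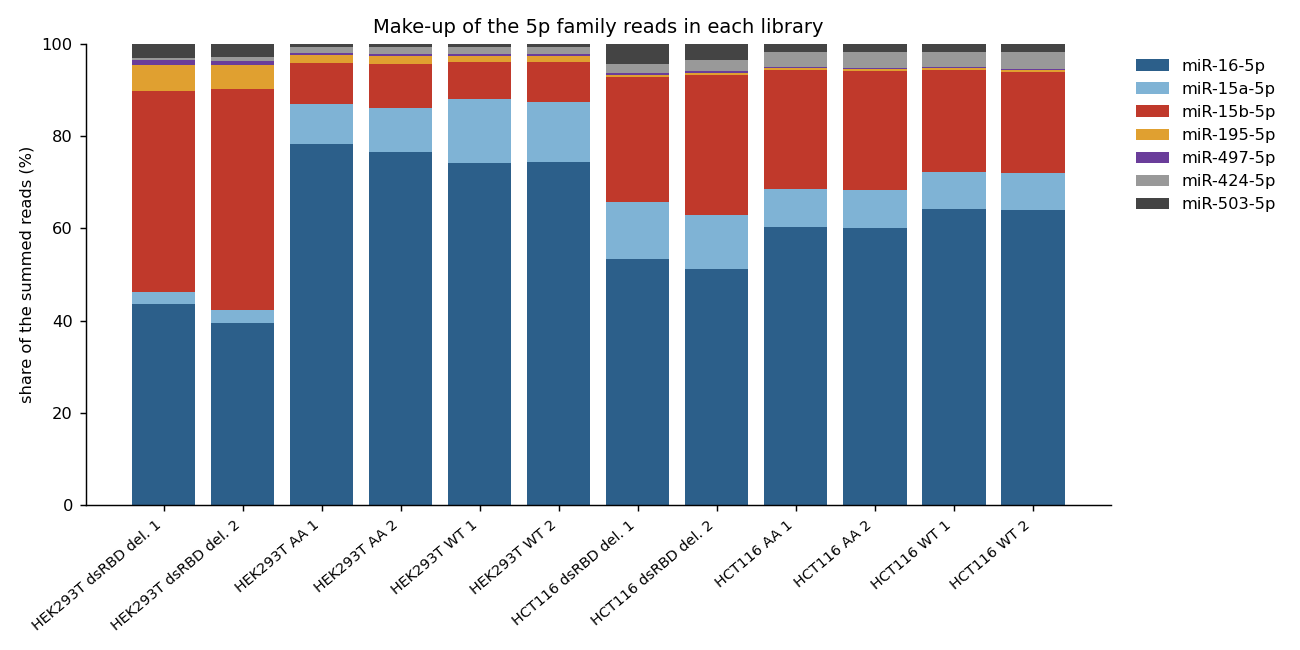
Stacked bars from 0 to 100% with the share of each miRNA in the summed reads of 7 5p strands of the family, 1 bar per library, HEK293T then HCT116, each with dsRBD deletion, AA and WT. In the 2 HEK293T deletion libraries miR-15b-5p takes 43.6% and 48.0% of the sum, against 8.20% and 8.59% in the WT libraries.

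Few members were called with the AA form on the TMM scale, and counts this small do not set the members apart from all names. More members were called lower on the spike-in scales in both lines, as given in the last section. By TMM, 1 of 9 members was called against WT in HEK293T, where 21.4% of 626 names were called. In HCT116 it was 0 of 9, where 7.42% of 795 were called. The called member was miR-15a-5p, with 7789 and 7619 CPM with AA in HEK293T, against 13989 and 13236 CPM with WT (log2 fold change −0.82 ± 0.16, adjusted p = 0.0050). It has the sign of the deletion effect at a smaller size, but both use the same WT libraries. The call was lost without AA replicate 2 (−0.74, adjusted p = 0.054) and with upper-quartile factors (−0.37, adjusted p = 0.10). In HEK293T the 9 members ranged from −0.82 to 0.33, with miR-15b-3p the highest, and in HCT116 from −0.27 to 0.27. In HCT116 DESeq2 also called 0 members, and 1 member, miR-16-5p, had an unadjusted p below 0.05, with 16062 and 15254 CPM with AA, against 18203 and 19489 CPM with WT. For strand balance, 0 of 4 member hairpins were called with AA in either line, where 10.6% of hairpins were called in HEK293T and 13.5% in HCT116. The AA effect did not differ by a called amount between the lines for any member (0 of 9, where 3.91% of names were called; 1 member, miR-15a-5p, had an unadjusted p below 0.05, and DESeq2 called 0).

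Set against AA in place of WT in HEK293T, 3 members were higher with the deletion, 5 lower and 1 not called, with 73.0% of names called. The log2 fold changes were −1.92 ± 0.16 for miR-15a-5p, 2.21 ± 0.17 for miR-15b-5p and 1.59 ± 0.18 for miR-195-5p. In HCT116, 2 members were higher and 3 lower than with AA, with 56.5% of names called, and the members ranged from −1.08 (miR-15b-3p) to 0.44 (miR-16-1-3p). Without AA replicate 1 or without AA replicate 2, 2 members were called in HCT116, both lower.

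The libraries also held 30 spike-in RNAs, whose amount and step of addition the labels do not give. Spike-ins took 3.32% and 3.54% of reads with the deletion in HEK293T, against 1.20% and 1.22% with WT, and 1.55% and 1.52% with the deletion in HCT116, against 0.364% and 0.272% with WT. Scaled on them, the median of all names moved to −1.53 in HEK293T and −1.78 in HCT116 for deletion over WT. On that scale miR-15a-5p in HEK293T was at −4.20, against 0.64 for miR-15b-5p as given above. Of the members lower in HEK293T by TMM, miR-16-5p was at −2.65 and miR-16-1-3p at −3.10, and miR-15b-3p, not called by TMM, was at −1.16 and called lower. In HCT116 all 9 members were called lower, from −1.28 for miR-195-5p to −2.86 for miR-16-2-3p. Of all 795 names there, 598 were called lower and 7 higher, so the members went with most names. The spike-ins disagreed among themselves: with each of the 30 alone as the reference, miR-15b-5p in HEK293T was above 0 with 23 and below 0 with 7, and miR-195-5p above 0 with 20. miR-15a-5p was below 0 with 30 of 30. In bulk libraries, less miRNA per cell, fewer cells and more spike-in RNA added cannot be told apart.

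**Figure D5:**
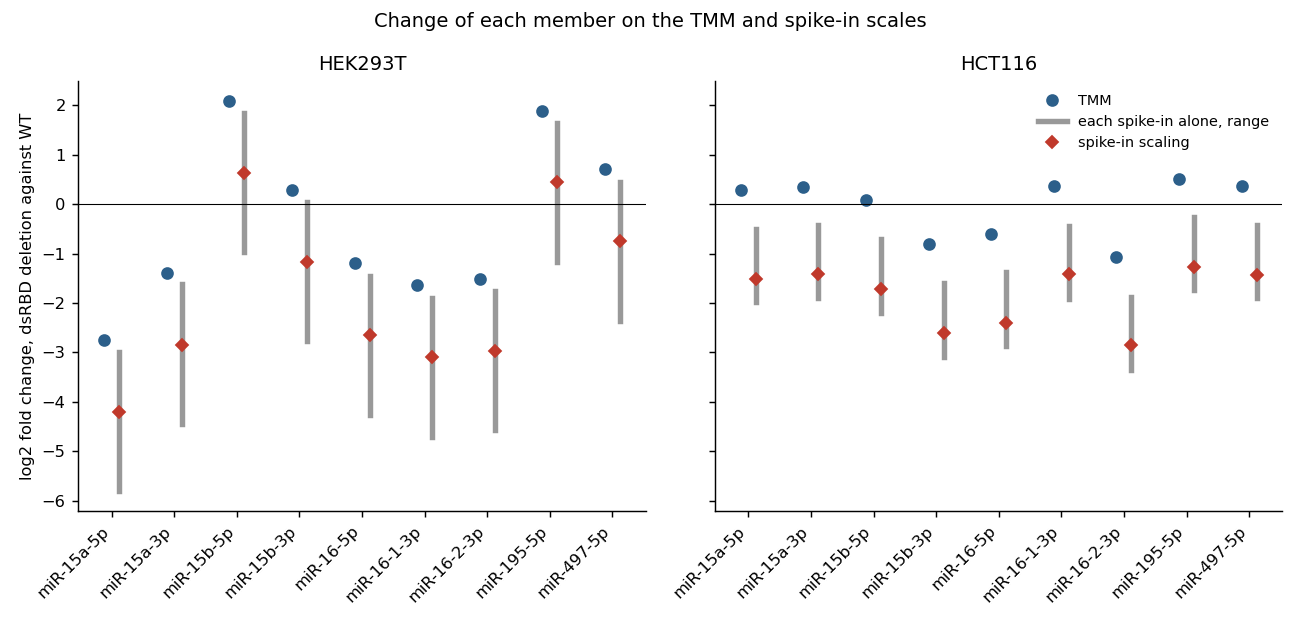
log2 fold change (y axis) of dsRBD deletion over WT for each member in HEK293T (left) and HCT116 (right), by TMM (circles), by spike-in scaling (diamonds) and as the range over 30 spike-ins used alone (grey bars). In HEK293T the diamond of miR-15b-5p stands at 0.64 and that of miR-15a-5p at −4.20, and in HCT116 all 9 diamonds stand below 0.

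Of the relatives, the cluster of miR-424 and miR-503 on chromosome X also split. miR-503-5p had 2298 and 2346 CPM with the deletion in HEK293T, against 706 and 616 CPM with WT (log2 fold change 1.81 ± 0.17), and 1023 and 861 CPM in HCT116, against 519 and 530 CPM with WT (0.84 ± 0.14). miR-424-5p, which has the member seed, had 447 and 609 CPM with the deletion in HEK293T, against 1557 and 1696 CPM with WT (−1.62 ± 0.19), and 440 and 576 CPM in HCT116, against 919 and 1145 CPM with WT (−1.02 ± 0.17). All 4 changes were called on the TMM scale. Of the partner strands, miR-424-3p was called lower with the deletion in HEK293T and not called in HCT116, and miR-503-3p was called in neither line. On the spike-in scale miR-503-5p was at 0.36 and not called in HEK293T and at −0.96 and called in HCT116. The more distant miR-103a-3p and miR-107 were lower with the deletion in both lines, at −5.07 ± 0.19 and −4.67 ± 0.21 in HEK293T and −3.96 ± 0.14 and −4.03 ± 0.17 in HCT116. miR-6838-5p, with the member seed, had at most 2 reads in a library and was not tested, and miR-646 was not listed.

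By pattern, the names most like miR-16-5p over the 12 libraries, after centring log2 CPM on each line's mean, were miR-221-3p, miR-1307-3p, miR-26a-5p, miR-25-3p and miR-26b-5p, with Pearson's r of 0.965 to 0.975 among 190 names of at least 100 CPM in each line. Those most like miR-15b-5p were miR-362-3p, miR-548b-3p, miR-19b-3p, miR-19a-5p and miR-19a-3p, at 0.958 to 0.975. Of the members, miR-195-5p was at 0.951 with miR-15b-5p, and miR-15a-5p at −0.949. These values describe 12 libraries and carry no test. For miR-16-5p the deletion libraries stood apart in both lines. For miR-15b-5p they stood apart in HEK293T only and overlapped with WT in HCT116, so its values rest mainly on HEK293T.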

How the data were processed

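Small RNA was read in 12 libraries, 2 for each of 3 DICER forms in HEK293T and HCT116. The deposited files hold read counts, 1 column of whole numbers per library with 1 row for each miRNA name and spike-in. The authors made these counts with cutadapt, BWA and bedtools, per the submitters' processing notes, which list the builds hg38 and mm10. Versions, the roles of the builds, the miRNA annotation and the handling of reads with several matches are not given there.

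From the counts, names passing filterByExpr (minimum count 10) were tested with edgeR 4.0.16 (R 4.3.3, limma 3.58.1): quasi-likelihood F tests, two-sided, TMM factors from miRNA reads, spike-ins kept out of library sizes, and Benjamini-Hochberg adjustment over all names at 0.05. Within a line the 6 libraries shared 1 fit with 3 residual degrees of freedom (795 names in HCT116, 626 in HEK293T), and all 12 libraries were fitted for contrasts between lines (844 names). Strand balance was tested as the 3p over 5p ratio with the library as a block, in hairpins with at least 10 reads of each strand in 2 libraries. A prior count of 2 was added for the log2 CPM used to compare patterns and same-numbered libraries, not for the fold changes of the tests. DESeq2 1.42.0 was run as an alternative. At the depths used, 3 reads correspond to 0.667 to 3.64 CPM in a library. The tests were also tried on simulated data, with the same setting of spread for all names.

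Named miRNAs were all 9 members, the relatives listed by seed or cluster, and the 5 names most like miR-16-5p and miR-15b-5p. The members and lists were chosen with earlier results of these data known. Replicate numbers were not treated as pairs. Sequences, coordinates and host genes are from RefSeq and the gene annotation on GRCh38, and figures were drawn with matplotlib 3.10.9 in Python 3.11.15.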

Additional observations from a re-analysis of the deposited data

Results flagged for a closer look

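The effect of the dsRBD deletion differed between the lines in 6 members, as tested by the interaction of line and DICER form over all 12 libraries in edgeR with adjustment over all 844 names. Given as the effect in HEK293T minus that in HCT116 on the log2 scale, the difference was −2.72 for miR-15a-5p, −1.42 for miR-15a-3p, 2.32 for miR-15b-5p, 1.41 for miR-15b-3p, −1.70 for miR-16-1-3p and 1.68 for miR-195-5p. Each kept its sign and its call when libraries were scaled on the spike-ins, at −2.67, −1.41, 2.37, 1.45, −1.67 and 1.73 in the same order. Groups of 2 libraries are too small to look for a library far from the rest of its group.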

How the results depend on the processing

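All 6 differences between the lines in the deletion effect kept their sign and call under every alternative test run. In HEK293T the falls of miR-15a-5p, miR-16-5p, miR-16-1-3p and miR-16-2-3p and the rise of miR-15b-5p did so too. The rise of miR-15b-5p was the less secure, as it shrank on the spike-in scale. With single spike-ins, for which no test was run, it ranged from −0.97 to 1.84 and was below 0 for 7 of 30. Scaling mattered most. On the spike-in scale (in parentheses, on the spike-in total), 9 (9) members were called lower with the deletion against WT in HCT116 and 9 (9) against AA. Of all 795 names, 598 (604) were lower against WT and 476 (530) against AA. With AA against WT, 4 (1) members were called lower in HCT116 and 3 (7) in HEK293T. Of all names, 270 (181) of 795 were lower in HCT116 and 190 (290) of 626 in HEK293T. Between the WT lines 5 (5) members were called, 3 higher and 2 lower in HEK293T. Of all 844 names, 85 (85) were higher and 577 (584) lower there. The values that changed sign in HCT116 with the deletion were miR-15a-5p −1.52 (−1.51), miR-15a-3p −1.42 (−1.42), miR-15b-5p −1.72 (−1.71), miR-16-1-3p −1.42 (−1.41), miR-195-5p −1.28 (−1.27), miR-497-5p −1.43 (−1.42) and miR-503-5p −0.96 (−0.95). In HEK293T they were miR-15b-3p −1.16 (−1.13) and miR-497-5p −0.75 (−0.72), and between the WT lines miR-15a-3p −0.28 (−0.30), miR-15b-5p −1.33 (−1.36), miR-15b-3p −0.68 (−0.71) and miR-16-1-3p −0.34 (−0.36). As the median over spike-ins used singly, chosen after seeing the data, miR-195-5p in HCT116 was at −1.21 and miR-497-5p in HEK293T at −0.73.

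Library totals called 7 members with the deletion against WT in HCT116, 8 against AA, and 1, lower, for the difference of the AA effect between lines. Of all names, they called 276 higher and 181 lower against AA in HCT116, and 7 positive and 71 negative for that difference. Upper-quartile factors called 9 members with the deletion against WT in HCT116 and 2, both higher, with AA in HEK293T. The median of all names with AA in HEK293T then moved to 0.34, with 129 names higher and 41 lower, where TMM gave 39 higher and 95 lower. For the deletion effect in HEK293T minus HCT116 the split of all names was 189 positive and 105 negative by TMM and 93 positive and 197 negative on library totals. With no filter on low counts, 3 members were called for deletion against AA in HCT116, miR-15b-5p there was at −0.15 against WT, and miR-15b-3p in HEK293T at −0.032. Fitting all 12 libraries together called 3 for deletion against AA in HCT116 and put miR-15b-5p there at −0.042 against WT. Of all names in that comparison against AA, 141 were higher and 282 lower of 1854 with no filter, and 147 and 231 of 844 in the fit of 12 libraries. The causes of these shifts were not tested.

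Leaving out 1 library at a time, with the lone library assumed to vary like the rest, gave 2 to 4 members for deletion against AA in HCT116, 0 to 1 for AA in HEK293T, −0.13 to 0.047 for miR-15b-5p in HCT116, −0.054 to 0.22 for the strand balance of miR-15a there, and 0 to 2 hairpins for AA in HEK293T. With the replicate number as a block (the replicate block), 4 members were called for deletion against AA in HCT116, where 5 were called without it, and the other counts did not change. Deviations of same-numbered libraries correlated at −0.10 to 0.15. Such values cannot show whether libraries with the same number share a culture or a batch, and the labels do not say. Of 1170 further values of members, relatives and hairpins that are given here only as counts or ranges, 117 changed sign, 38 of them on a spike-in scale. Members with few reads, such as miR-15a-3p at 37 reads or more, are the least precise.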
